A study of Mus musculus with 4 samples.

Results

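The genes described here encode a transporter, shuttle enzymes and oxidation enzymes by which gut epithelium takes up and oxidises fatty acids of different chain lengths, butyrate among them. They are Slc16a1, Cpt1a, Cpt2, Acads, Acadm, Hadha, Hadhb, Acaa2 and Acat1. They were the probe sets whose platform gene symbol is one of these 9 names, chosen by function and not by their values. All 9 were on the array, with 19 of its 45037 probe sets and 9 of its 18193 named genes. Expression was measured on 1 array for each of 4 groups of C57/Bl6 mice: ileum of germ-free mice, ileum of wild type mice, proximal colon of germ-free mice and proximal colon of wild type mice. Germ-free mice carry no microbes; the labels name the others control or wild type, with no other allele or treatment, and give no age. Each array carried RNA of about 16000 laser-captured epithelial cells, about 4000 from each of 4 mice, pooled before 2 rounds of amplification. The comparisons asked how these genes differ without microbes in each region, and between regions in each state.

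Colonocytes draw much of their energy from butyrate, a short-chain fatty acid that gut bacteria make from fibre. Butyrate enters the cell partly through the proton-coupled monocarboxylate transporter Slc16a1, is activated to butyryl-CoA and enters mitochondrial β-oxidation without the carnitine shuttle that long-chain fatty acids need. In the matrix a dehydrogenase, a hydratase, a second dehydrogenase and a thiolase shorten the chain turn by turn to acetyl-CoA, which feeds the tricarboxylic acid cycle or ketone body synthesis.

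Each group is 1 array of pooled RNA. The differences therefore have no replicate check, no p-value and no SD over mice, and their precision is limited by that number of arrays. Intensities were quantile-normalized, and a change is a difference of log2 values. A gene is read from its brightest probe set. A floor at an intensity of 62.4, the median of all values, stands in for anything dimmer, and a fold against it is a lower bound. A gene counted as called when it was at least 2-fold higher or lower. The only measure of technical error is the SD of the change between the brightest 2 probe sets of the same gene, over 2217 genes: 0.21 log2 for germ-free against wild type ileum, 0.29 for germ-free against wild type colon, 0.31 for germ-free ileum against colon and 0.29 for wild type ileum against colon. Intensities of different probe sets cannot be set against each other, so levels are compared within a gene only.

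The captures carried epithelial markers, and markers of other cells as well. All 16 epithelial markers were above the floor on all 4 arrays, and 0 of them were past 2-fold in any of the 4 comparisons. Of 14 fibroblast and smooth muscle markers between 7 and 12 were above the floor on each array, and of 9 plasma and B cell markers 6 or 7. For the Gapdh control probe sets, the log2 ratio of 5′ to 3′ signal differed between germ-free and wild type arrays by -1.10 in ileum and -0.48 in colon. The difference was -1.20 and -0.12 for Actb and -0.28 and -0.43 for pyruvate carboxylase, and 18S ribosomal RNA signal differed by -0.93 and -1.23. The part of RNA quality in the germ-free differences was not tested. The labels mention hematoxylin for the germ-free samples alone, and effects of staining and of the microbes cannot be told apart. In a pooled capture, fewer cells of a type and less RNA per cell cannot be told apart either.

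By the brightest probe sets, Slc16a1 was the 1 member called in any of the 4 comparisons, lower in wild type ileum than in wild type colon (5.93% of all genes). Acads and Cpt1a read -0.93 and -0.75 in that comparison, Cpt2 0.41, and Acadm and Acat1 0.13 each. Over all 4 comparisons the changes of Acadm and Acat1 ran between -0.20 and 0.34. Germ-free against wild type, 0 of 9 members were called in colon (3.23% of all genes lower and 1.29% higher) and 0 of 9 in ileum (0.698% and 0.230%). In colon Slc16a1, Hadha and Acads read at least 1.5-fold lower, and in ileum no member moved that far. In the values as deposited, without quantile normalization, Hadha read -0.47 and Acads -0.48 in colon, both short of 1.5-fold. With the mean over probe sets Slc16a1 read -0.37 in colon, also short of it. The plot of intensities by array shows the members' levels.

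**Figure D1:**
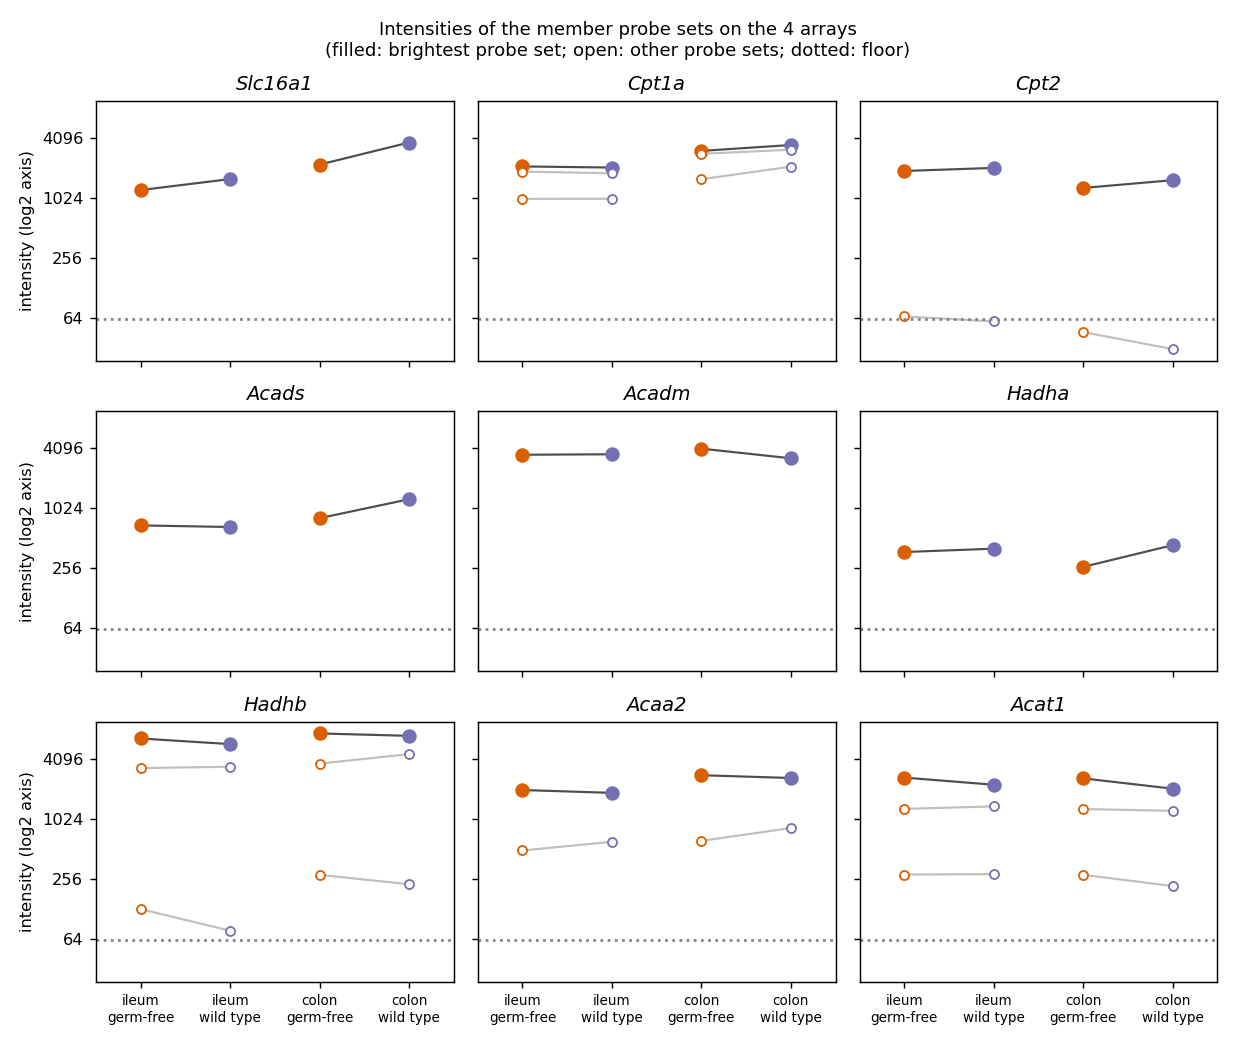
Quantile-normalized intensity (log2 axis) of the member probe sets on the 4 arrays, 1 panel per gene, with germ-free arrays in orange, wild type arrays in purple, filled points for the brightest probe set, open points for the others that pass the floor on at least 1 array, and the floor of 62.4 as a dotted line. Slc16a1 ran between 1225 on the germ-free ileum array and 3678 on the wild type colon array, while Acadm stayed between 3248 and 4059.

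In the regional comparison, 1 of 9 members was at least 2-fold lower in wild type ileum than in wild type colon and 0 were higher, where 5.93% of 12000 measured genes were lower and 6.04% higher. At 1.5-fold, 3 of 9 members were lower and 0 higher, against 13.8% and 13.6% of all genes. The median change of the members was -0.28 log2, and that of all genes -0.01. Between the germ-free arrays 0 of 9 members were called, against 5.88% of 11986 genes lower and 7.37% higher; 1 of 9 was at least 1.5-fold lower (13.4% of all genes) and 0 at least 1.5-fold higher (17.2%). The median of the members was -0.20, and that of all genes 0.04.

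Those captures also differed in the markers of the absorptive cells themselves. Among colonocyte markers 8 of 13 measured passed 2-fold and read lower in wild type ileum, with a summed intensity of 34469 in ileum and 76415 in colon. Of 15 measured markers of ileal absorptive enterocytes 12 were at least 2-fold higher, with sums of 117245 in ileum and 35527 in colon. At the floor were Scnn1b, Scnn1g and Hoxb13 of the colonocyte list in wild type ileum, with the last 2 also in wild type colon. Of the ileal list, Lct and Slc2a2 were at the floor in wild type ileum, and Apoa1, Mttp, Lct, Anpep and Slc2a2 in wild type colon. The part of cell composition in the regional values was not tested.

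**Figure D2:**
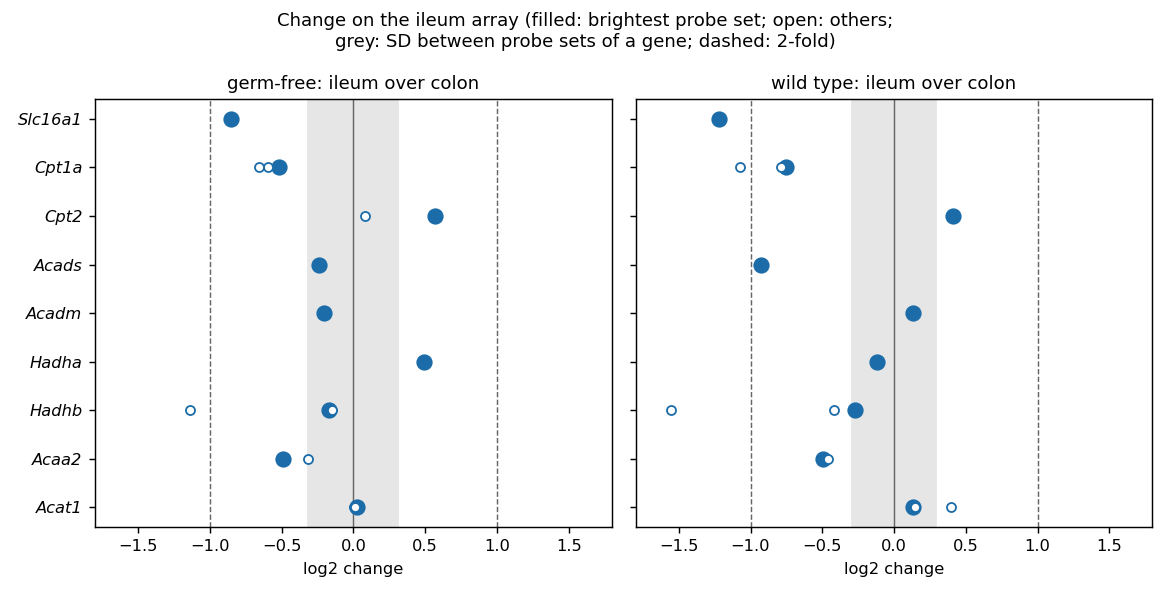
Log2 change of ileum over colon for each member between the germ-free arrays (left) and the wild type arrays (right), with the brightest probe set filled, other probe sets open, the SD between probe sets of a gene in grey and 2-fold as dashed lines; probe sets at the floor on both arrays are left out. Slc16a1 lay at -0.85 between the germ-free arrays and at -1.22 between the wild type arrays, and all 3 probe sets of Cpt1a lay below 0 in both panels.

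In the germ-free comparison of the colon, 0 of 9 members were past 2-fold, where 3.23% of 11746 measured genes were lower and 1.29% higher. At 1.5-fold 3 of 9 were lower and 0 higher, against 10.8% and 6.19% of all genes. The median change was -0.20, and that of all genes -0.01. In the ileum 0 of 9 were past 2-fold, where 0.698% of 11750 genes were lower and 0.230% higher, and 0 of 9 were past 1.5-fold (3.17% lower and 2.40% higher among all genes). The median change was 0.04, and that of all genes 0.03. The germ-free change in colon minus that in ileum had a median of -0.16 over the members and -0.02 over 11065 genes. It ran between -0.68 for Acads and 0.34 for Acadm. The SD between probe sets for this difference was 0.33 log2. Beyond it lay Acads, Hadha (-0.61) and Slc16a1 (-0.37) below 0 and Acadm above 0, and the other members lay within it.

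Other markers moved on the germ-free colon array as well. Of 14 measured ileal enterocyte markers 4 were at least 2-fold higher, with a summed intensity of 49748 on the germ-free array and 35527 on the wild type array, and Mttp, Lct and Slc2a2 at the floor on both. Among 13 colonocyte markers 2 read at least 2-fold lower, with sums of 78816 on the germ-free and 76415 on the wild type array, and Scnn1g and Hoxb13 at the floor on both and Slc37a2 on the germ-free array. Of 6 plasma and B cell markers 2 were lower, Igha (9.19-fold) and Jchain (7.87-fold), and 0 higher. That list had sums of 11354 on the germ-free and 15192 on the wild type array, with Cd79a, Cd79b and Ms4a1 at the floor on both. Much of these sums came from Sdc1 (6464 on the germ-free and 4852 on the wild type array) and Xbp1 (3843 and 3628), neither of them called. Of 8 endothelial and pericyte markers 2 were lower and 1 higher (sums of 1185 on the germ-free and 1771 on the wild type array), with Pecam1, Cdh5 and Vwf at the floor on both. Of 6 tuft cell markers 2 were lower (sums of 547 on the germ-free and 1043 on the wild type array), with Pou2f3 and Gfi1b at the floor on both. Of 5 T and intraepithelial lymphocyte markers 2 were lower (sums of 706 on the germ-free and 1220 on the wild type array), with Cd3e, Cd3d and Cd3g at the floor on both. In addition 1 of 4 adipocyte markers (Lpl, 3.62-fold) and 1 of 7 myeloid markers were lower and 1 of 7 crypt markers was higher, while 0 were called among the goblet, Paneth, enteroendocrine, and fibroblast and smooth muscle markers.

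In germ-free against wild type ileum, 2 of 9 endothelial and pericyte markers were lower, Rgs5 (13.6-fold) and Fabp4 (13.5-fold). That list had a summed intensity of 1360 on the germ-free and 4822 on the wild type array, with Pecam1 and Vwf at the floor on both. Of 12 fibroblast and smooth muscle markers 4 were lower (sums of 10586 on the germ-free and 13647 on the wild type array), with Myh11 and Cnn1 at the floor on both. Of 7 plasma and B cell markers 2 were lower, Jchain (6.83-fold) and Igha (4.21-fold), and 0 higher. That list had sums of 12838 on the germ-free and 22893 on the wild type array, with Cd79a and Ms4a1 at the floor on both. Much of these sums came from Sdc1 (5252 on the germ-free and 5003 on the wild type array) and Xbp1 (4634 and 5194), neither of them called. Also lower were 2 of 5 Paneth cell markers (sums of 12117 on the germ-free and 18848 on the wild type array), 2 of 6 T and intraepithelial lymphocyte markers (1135 on the germ-free and 1999 on the wild type array), 2 of 5 adipocyte markers including Fabp4 (340 on the germ-free and 1743 on the wild type array), 1 of 9 myeloid and 1 of 12 colonocyte markers. Among the 16 ileal enterocyte markers and the goblet, enteroendocrine, tuft and crypt markers 0 were called. Their part in the members' values was not tested.

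**Figure D3:**
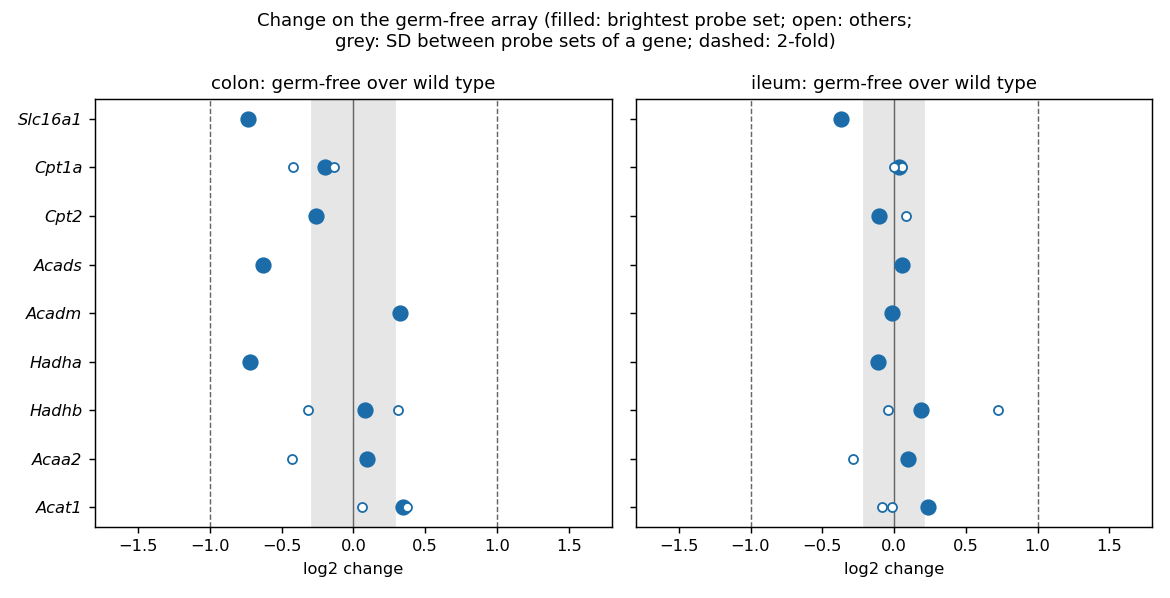
Log2 change of germ-free over wild type for each member in colon (left) and ileum (right), with the brightest probe set filled, other probe sets open, the SD between probe sets of a gene in grey and 2-fold as dashed lines; probe sets at the floor on both arrays are left out. In colon Slc16a1, Hadha and Acads lay between -0.74 and -0.63, and in ileum all 9 brightest probe sets lay between -0.37 and 0.24.

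Entry into the cell. Slc16a1, the transporter of butyrate, lactate and ketone bodies, had an intensity of 1225 in germ-free ileum, 1579 in wild type ileum, 2207 in germ-free colon and 3678 in wild type colon. Each step in that order was larger than 0.31 log2, the largest of the SDs between probe sets; no other member had that at all 3 steps. It was 2.33-fold lower in wild type ileum than in wild type colon (-1.22), and read -0.85 between the germ-free arrays. The germ-free change was -0.74 in colon (1.67-fold lower) and -0.37 in ileum (1.29-fold lower), both larger than the SD between probe sets and both short of 2-fold. These values rest on 1 probe set, since the other one for this gene was below the floor on every array. Averaging the pair, with the dim one at the floor, brings the wild type regional change to -0.61 and ends the call.

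Slc16a1 needs the chaperone Bsg to reach the plasma membrane, and Bsg was lower on the same germ-free arrays. Its intensity was 961 in germ-free colon and 2157 in wild type colon, 2.24-fold lower. In ileum it was 954 in germ-free and 1443 in wild type mice (-0.60), and the ileum over colon changes were -0.01 between germ-free and -0.58 between wild type arrays. Bsg was therefore called in colon alone, and the difference between regions was not tested. The sodium-coupled butyrate transporter Slc5a8 read 3976 in germ-free and 4353 in wild type ileum, and 3374 in germ-free and 3205 in wild type colon, with no change past 2-fold. Of the transport and sensing list 15 of 16 genes matched. In germ-free against wild type colon 2 of 10 measured genes were lower and 1 higher, and in ileum 0 of 10 were called. Besides Bsg these were 2 relatives of Slc16a1: Slc16a9 was 4.07-fold lower in germ-free colon (162 against 661), with another probe set at -1.65 and the last at the floor in germ-free colon, and Slc16a10, an aromatic amino acid transporter, was 2.24-fold higher (147 against 65.9). The mean over its probe sets, of which the dimmer was at the floor in colon, was 0.29 and ended that call.

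Between regions the same list had 2 genes higher and 1 lower of 11 measured, in both states. Slc16a10 was 12.2-fold higher in germ-free ileum than in germ-free colon and 21.9-fold higher in wild type ileum than in wild type colon. Slc5a12, a sodium-coupled lactate transporter, was at the floor on both colon arrays and at least 11.6-fold higher in germ-free and at least 6.26-fold higher in wild type ileum. With the floor at the 75th percentile the wild type bound became 0.60 log2. Slc16a9 was at the floor on both ileum arrays, at least 2.60-fold lower between germ-free and at least 10.6-fold lower between wild type arrays. Its second probe set read -0.02 between the germ-free arrays, which ends that call. The monocarboxylate transporters thus differed in which region read higher.

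The carnitine shuttle. Cpt1a, the outer membrane carnitine palmitoyltransferase that controls entry of long-chain fatty acids, had an intensity of 2115 in germ-free ileum, 2061 in wild type ileum, 3029 in germ-free colon and 3472 in wild type colon. Both ileum arrays lay below both colon arrays. The ileum over colon change was -0.52 between the germ-free arrays and -0.75 between the wild type arrays. Its other 2 probe sets read -0.59 and -0.65 between germ-free and -0.79 and -1.07 between wild type arrays, so 1 of 3 passed 2-fold in the wild type pair. The brightest 2 end in _x_at, a class that can bind several transcripts; the one outside that class gave the -1.07. Against wild type, the germ-free change was 0.04 in ileum and -0.20 in colon, both within the SD between probe sets.

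Cpt2, the inner membrane enzyme that returns the acyl group to CoA, went the other way between regions. Its intensity was 1904 in germ-free ileum, 2044 in wild type ileum, 1287 in germ-free colon and 1538 in wild type colon. Both ileum arrays were above both colon arrays, by 0.57 between germ-free and 0.41 between wild type arrays. The germ-free change was -0.10 in ileum and -0.26 in colon. The carrier Slc25a20, which swaps acylcarnitine for carnitine between the steps of Cpt1a and Cpt2, read like Cpt1a, at -0.66 between the germ-free and -0.71 between the wild type arrays. Of the carnitine list, 10 of 11 genes matched and 8 were measured. On the germ-free arrays 0 of 8 were called in either region. In ileum against colon 1 was higher between germ-free and 2 between wild type arrays and 0 lower, with Aldh9a1, of carnitine synthesis, 2.69-fold and 3.13-fold higher, and the peroxisomal acyltransferase Crot 2.13-fold higher between wild type arrays.

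Promoter windows are shown for the members that read lowest in wild type ileum relative to wild type colon, and for Hadhb, whose window is shared with Hadha. They are the 250 bases before the transcription start in RefSeq (build GRCm38.p6), in the gene's own direction, 5′ to 3′. Capitals mark matches on either strand to AGGTCA, the core motif of nuclear receptors such as the PPARs, to the E-box CACGTG and to the GC box GGGCGG. The windows are chr3:104638414-104638663 (+) for Slc16a1, chr19:3323051-3323300 (+) for Cpt1a, chr5:115119347-115119596 (-) for Acads and chr5:30155003-30155252 (+) for Hadhb.
Slc16a1: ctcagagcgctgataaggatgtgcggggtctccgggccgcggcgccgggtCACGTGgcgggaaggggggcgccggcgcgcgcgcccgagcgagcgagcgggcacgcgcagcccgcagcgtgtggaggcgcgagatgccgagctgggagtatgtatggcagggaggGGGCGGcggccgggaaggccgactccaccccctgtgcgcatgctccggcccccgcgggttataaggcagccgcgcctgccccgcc
Cpt1a: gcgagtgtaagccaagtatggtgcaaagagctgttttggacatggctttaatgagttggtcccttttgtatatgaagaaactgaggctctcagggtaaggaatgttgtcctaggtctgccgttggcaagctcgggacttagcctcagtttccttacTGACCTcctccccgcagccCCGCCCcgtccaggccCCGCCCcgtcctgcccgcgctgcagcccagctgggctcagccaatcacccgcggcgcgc
Acads: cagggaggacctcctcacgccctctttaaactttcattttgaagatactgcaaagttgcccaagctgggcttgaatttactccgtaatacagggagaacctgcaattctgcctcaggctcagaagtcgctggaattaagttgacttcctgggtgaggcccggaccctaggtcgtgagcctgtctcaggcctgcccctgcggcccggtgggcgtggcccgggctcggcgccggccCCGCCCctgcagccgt
Hadhb: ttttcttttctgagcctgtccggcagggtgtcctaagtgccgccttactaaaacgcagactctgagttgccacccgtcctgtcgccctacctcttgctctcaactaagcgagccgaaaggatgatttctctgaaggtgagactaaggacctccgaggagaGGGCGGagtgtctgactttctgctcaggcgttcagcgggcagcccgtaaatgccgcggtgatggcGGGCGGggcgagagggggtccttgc
Windows of 7 of the 9 members were used. AGGTCA was in 2 of 7, those of Acadm and Cpt1a, and in 14.0% of all 32851 promoter windows. In the Cpt1a window it lay 94 to 89 bases before the start. CACGTG was in 1 of 7, that of Slc16a1, 200 to 195 bases before the start, and in 6.02% of all windows. GGGCGG was in 6 of 7, all but that of Acadm, and in 32.7% of all windows. The match in the Hadha window is the same stretch as that of Hadhb at 90 to 85 bases before its start, so these 2 windows are not independent. The direct repeat of the nuclear receptor core motif with 1 base between was in 0 of 7 and in 0.0335% of all windows, and the ERR element, which also holds the core motif, in 0 of 7 and in 0.387%. A match is a stretch of letters and not a measured binding site.

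The oxidation spiral. Acads, the short-chain acyl-CoA dehydrogenase that takes butyryl-CoA, had an intensity of 688 in germ-free ileum, 663 in wild type ileum, 814 in germ-free colon and 1260 in wild type colon. The wild type colon array stood above the other 3, which lay close together. The germ-free change was 0.05 in ileum and -0.63 in colon (1.55-fold lower), and the ileum over colon change was -0.24 between germ-free and -0.93 between wild type arrays, short of 2-fold. Acadm, the medium-chain dehydrogenase, did not share this. Its intensity was 3526 in germ-free ileum, 3564 in wild type ileum, 4059 in germ-free colon and 3248 in wild type colon, so that wild type colon was the lowest array for Acadm and the highest for Acads. Its germ-free change was -0.02 in ileum and 0.32 in colon, and its widest range over the arrays was also 0.32 log2.

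Hadha and Hadhb encode the α and β subunits of the trifunctional protein, which carries the later steps for long chains. The genes lie head to head on chromosome 5, with 272 bases between their starts, and their promoter windows share 228 bases of the Hadhb sequence above. Hadha had an intensity of 372 in germ-free ileum, 402 in wild type ileum, 264 in germ-free colon and 436 in wild type colon, with germ-free colon alone standing low. Its germ-free change was -0.11 in ileum and -0.72 in colon (1.65-fold lower). Hadhb had an intensity of 6531 in germ-free ileum, 5736 in wild type ileum, 7338 in germ-free colon and 6943 in wild type colon, a germ-free change of 0.19 in ileum and 0.08 in colon. The next probe set of Hadhb gave -0.04 in ileum and -0.32 in colon, so the direction in both regions depends on the probe set. The third and dimmest one, at 127 and 76.7 in germ-free and wild type ileum and 279 and 225 in germ-free and wild type colon, read -1.55 in the wild type regional comparison where the brightest read -0.28. The germ-free change of this dimmest probe set was 0.72 in ileum, past 1.5-fold, and 0.31 in colon. Hadha had 1 probe set, so the difference between the subunits in germ-free colon has no second reading.

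Of the other mitochondrial spiral genes few were called. Of 21 genes, all matched and measured, 1 was lower and 0 higher on the germ-free colon array and 0 were called in ileum, with medians of -0.05 and -0.02 log2. The lower one was Acad12, a relative of Acads, at 166 in germ-free and 390 in wild type colon (2.35-fold); with the floor at the 75th percentile its change was -0.59. Next came Pcca, a subunit of propionyl-CoA carboxylase, at 573 in germ-free and 1000.2 in wild type colon (1.74-fold lower), and Acadsb, the branched-chain acyl-CoA dehydrogenase, at 107 in germ-free and 179 in wild type colon (1.68-fold lower). Both read further below 0 than any member there. The very long-chain dehydrogenase Acadvl read -0.25 in colon and -0.20 in ileum, the long-chain dehydrogenase Acadl 0.19 and 0.35. The medium- and short-chain hydroxyacyl-CoA dehydrogenase Hadh was flat, at 15544 in germ-free ileum, 15191 in wild type ileum, 15772 in germ-free colon and 15902 in wild type colon. Between regions 1 gene was higher and 0 lower in germ-free ileum, and 1 higher and 2 lower in wild type ileum. The lower ones were Pcca and Acadsb (2.03-fold; -0.99 log2 with median scaling). The subunits of propionyl-CoA carboxylase, which takes up the product of odd chains, read in opposite directions there: Pccb was 2.74-fold higher and Pcca 2.46-fold lower in wild type ileum. The mean over the probe sets of Pcca was -0.65, short of 2-fold.

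Thiolases and ketone bodies. Acaa2, the mitochondrial 3-ketoacyl-CoA thiolase, had an intensity of 1984 in germ-free ileum, 1858 in wild type ileum, 2794 in germ-free colon and 2620 in wild type colon, with both ileum arrays below both colon arrays (-0.49 between germ-free, -0.50 between wild type arrays). Its other probe set above the floor also read lower in ileum, by -0.32 and -0.46. The germ-free change was 0.09 in ileum and 0.09 in colon by the brightest probe set, but -0.29 and -0.43 by the other, so it has no settled direction. Acat1, the acetoacetyl-CoA thiolase of ketone body synthesis and use, had an intensity of 2645 in germ-free ileum, 2242 in wild type ileum, 2596 in germ-free colon and 2046 in wild type colon. Both germ-free arrays were above both wild type arrays, by 0.24 in ileum and 0.34 in colon. Its other probe sets read -0.08 and -0.01 in ileum and 0.06 and 0.37 in colon.

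Among ketone body genes, 7 of 10 matched. In germ-free colon 0 of 3 measured genes were called. The gene nearest to the threshold was Oxct1, the enzyme that activates acetoacetate for use, at 4143 in germ-free and 2090 in wild type colon (1.98-fold higher), and its other 3 probe sets read 0.75, 1.26 and 1.37. In ileum Oxct1 was 5348 in germ-free and 5591 in wild type mice. It was 2.68-fold higher in wild type ileum than in wild type colon and read 0.37 between the germ-free arrays. Aacs, the cytosolic acetoacetyl-CoA synthetase, was 2.14-fold higher in wild type ileum. In the 4 measured genes 2 were higher and 0 lower in wild type ileum, and 0 were called between germ-free arrays or in germ-free ileum. Bdh1, the hydroxybutyrate dehydrogenase, read -0.17 in germ-free colon.

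Activation, peroxisomes and regulators. Of 140 other genes of the pathway listed, 128 matched a gene here. Of 104 measured in germ-free against wild type colon, 6 were lower (5.77%, against 3.23% of all genes) and 1 higher (0.962%, against 1.29%). On the germ-free ileum array 0 of 104 were called in either direction, against 0.698% of all genes lower and 0.230% higher. The median change was -0.06 in colon and 0.02 in ileum. Among acyl-CoA synthetases 1 of 12 was lower and 0 higher in germ-free colon and 0 of 11 were called in ileum. That gene was Acsl3, at 1358 in germ-free and 3313 in wild type colon (2.44-fold), and its other 2 probe sets were also at least 2-fold lower.

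Of 22 receptors and regulators 2 were lower and 0 higher in germ-free colon, and 0 of 21 were called in ileum. Pparg, the nuclear receptor that colonocytes express strongly, was 2.53-fold lower in germ-free colon, at 876 against 2215, and read 176 in germ-free and 188 in wild type ileum. Acacb, which makes the malonyl-CoA that inhibits Cpt1a, was 2.32-fold lower in germ-free colon, at 142 against 329. The mean over its probe sets, -0.61, and the floor at the 75th percentile, -0.35, ended that call. In ileum Acacb was at the floor in both states. Mlycd, which removes malonyl-CoA, read 528 in germ-free and 272 in wild type ileum (1.94-fold higher), and 342 in germ-free and 526 in wild type colon (1.54-fold lower). Ppara read 0.37 in ileum and 0.17 in colon, and Ppard 0.07 and -0.40. In the list of PPAR-responsive genes, which also holds Txnip and Tgoln1, not classical targets, 0 of 15 were called in either region. The median change of that list was -0.35 in colon, with 11 of 15 below 0 and 4 above, where the median of all genes was -0.01. In ileum the median of the list was 0.01, and that of all genes 0.03. In peroxisomal oxidation 0 of 13 were called in germ-free colon and 0 of 14 in germ-free ileum, where the thiolase Acaa1b read 939 against 503 (1.87-fold higher).

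Between regions more of these genes passed 2-fold than between germ-free and wild type, as did more of all genes. In wild type ileum against wild type colon 13 of 107 other pathway genes were higher and 13 lower (12.1% each, against 6.04% and 5.93% of all genes), and between the germ-free arrays 12 of 108 were higher and 12 lower (11.1% each, against 7.37% and 5.88% of all genes). The long-chain synthetases read in opposite directions: Acsl5 was 2.76-fold higher in germ-free and 3.17-fold higher in wild type ileum, while Acsl3 was 5.73-fold and 10.4-fold lower. Acsl4 was 2.46-fold and 2.30-fold lower by its brightest probe set, but read -0.31 and -0.22 by the next. Of 12 synthetases between the germ-free arrays and 11 between the wild type arrays, 3 were higher and 2 lower each, among the higher ones the fatty acid transport protein Slc27a2 (3.78-fold and 2.23-fold, but 0.86 and 0.28 log2 with the floor at the 75th percentile), with Slc27a4 (2.05-fold) between the germ-free and Acsf3 (2.03-fold) between the wild type arrays. Pdk4, the kinase that shuts pyruvate out of oxidation and a PPAR target, was 23.1-fold lower in germ-free and 26.8-fold lower in wild type ileum. Its intensity was 80.6 in germ-free and 67.0 in wild type ileum, near the floor. With the floor at the 75th percentile Pdk4 read -2.85 and -2.80 log2. It belongs to the PPAR-responsive list, in which 2 of 16 were higher and 4 lower in both states; its higher genes were Fabp1, the liver-type fatty acid binding protein (7.61-fold in germ-free and 4.32-fold in wild type ileum), and the pantetheinase Vnn1 (2.91-fold and 2.53-fold). Its other lower genes were Tgoln1 (3.05-fold and 2.69-fold) and Txnip (3.31-fold and 2.05-fold, but -0.11 and -0.13 log2 by its second probe set), with Cidec (2.72-fold) between the germ-free and Acot1 (at least 2.13-fold) between the wild type arrays. Pparg was 4.98-fold and 11.8-fold lower and the coactivator Ppargc1b read -1.32 and -1.42, with 4 of 22 regulators lower between germ-free arrays, 3 of 22 lower between wild type arrays and 0 higher in either. The others were Acacb, at least 2.28-fold and at least 5.27-fold lower, and Prkaa1, a catalytic subunit of AMP-activated kinase, 2.01-fold lower between germ-free arrays. Of 14 peroxisomal genes 3 were higher and 1 lower between germ-free arrays and 1 higher and 1 lower between wild type arrays, the lower one being Acaa1b in both (3.99-fold and 7.85-fold). The higher ones were Amacr (2.28-fold and 2.26-fold) and, between germ-free arrays, Acot4 (2.20-fold) and Hacl1 (2.08-fold).

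**Figure D4:**
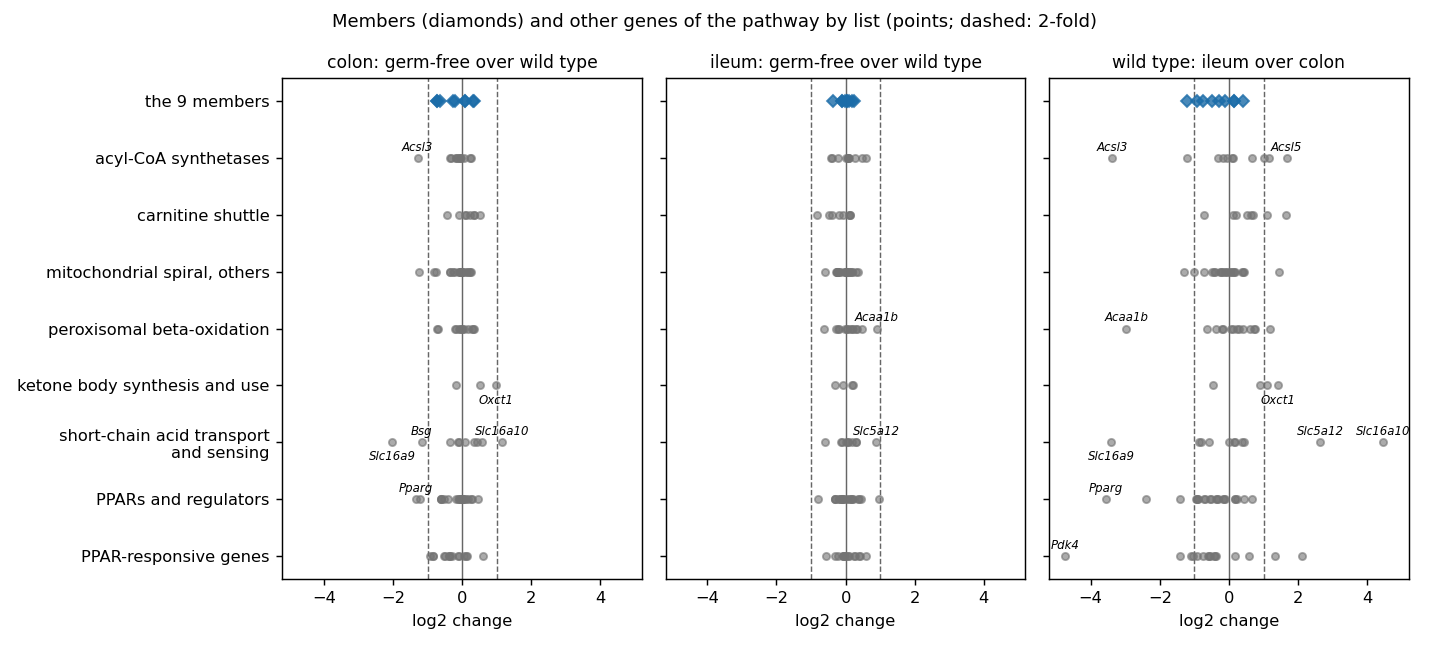
Log2 change of the 9 members (blue diamonds) and of the other pathway genes by list (grey points, genes at the floor on both arrays left out) for germ-free over wild type in colon and in ileum and for ileum over colon in wild type mice, with 2-fold as dashed lines and some genes named. The members lay between -0.74 and 0.34 in colon and between -0.37 and 0.24 in ileum, inside the dashed lines, while Pparg, Acsl3, Bsg and Slc16a9 lay below them in colon.

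Other mitochondrial pathways were set beside the members. Of 20 tricarboxylic acid cycle genes and 25 respiratory chain genes, 0 were called on the germ-free arrays in colon or ileum, with medians of -0.09 and -0.05 in colon and 0.01 and 0.02 in ileum. In ileum against colon 1 gene of each list was higher and 0 lower in either state (Ndufa4 in both, Dlst between germ-free and Sucla2 between wild type arrays), with medians of 0.17 and -0.03 between the germ-free and 0.08 and -0.00 between the wild type arrays. The medians of the members for the same regional comparisons, -0.20 and -0.28, were lower than these. That difference was not tested.

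Genes with profiles most like those of the members were found by the root mean square distance of centred log2 values over the 4 arrays, among 7603 bright genes. With 4 values per gene, close matches are a description of these arrays. For Slc16a1 they were Bahd1 (a distance of 0.024), Hsd17b2 (0.044) and Cd24a (0.064). For the mean of the members, which ranged over 0.35 log2, they were Cpne1 (0.00817), Atp6v1d, Unc45a, Vps39 and Prdx3 (0.018).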

How the data were processed

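Each array carried RNA of 1 pooled group, from 40 ng of total RNA. The authors deposited intensities, linear and per probe set. According to the series' design text these came from dCHIP2004; its options are not stated there. Of 45101 probe sets, 64 controls were set aside.

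The medians of the probe sets at or above an array's own median differed by 0.32 log2 between arrays, above a limit of 0.25, so log2 values were quantile-normalized. Values under the pooled median were raised to it. Probe sets with 1 gene symbol in the platform annotation (34945) were used; 932 had several and 9160 were unnamed here. Comparisons were differences of log2 values, computed with Python 3.11.15 and pandas 2.3.3, and tested on simulated data.

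Named are all members, other pathway genes past 2-fold, and some of the 2 largest changes per list among bright genes. Oxct1 probe sets, Slc25a20, Hadh, Acadl, Acadvl, Bdh1, Ppara and Ppard were named for their roles, with their values known. The members, lists and rules were chosen with earlier results of these data known, and the motifs after the sequences were seen. Alternatives were scaling, floor and choice of probe set.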

Additional observations from a re-analysis of the deposited data

How the results depend on the processing

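No paired analysis was possible because each group has 1 array, and no array could be left out. Over 8 other settings of scaling, floor and probe set, the median change of the members moved by less than the SD between probe sets in every comparison but 1: with median scaling, germ-free ileum against colon was 0.12 where it was -0.20, and the median of all genes moved to 0.18 from 0.04. In colon the median of all genes for germ-free against wild type was 0.09 as deposited and -0.12 with median scaling, against -0.01 here, and the higher genes made up 51.8% and 21.3% of those past 2-fold, against 28.6% here. Between the germ-free arrays those shares were 38.5% and 64.3%, against 55.6% here. With 1.5-fold as the threshold 3 members were called in germ-free against wild type colon, where Hadha and Acads fell short as deposited. By that threshold 1 was called in germ-free and 3 in wild type ileum against colon. Back at the 2-fold threshold, in the last comparison 2 members were called (Slc16a1 and Cpt1a) without probe sets of the classes open to several transcripts. With the mean over probe sets 0 were called at 2-fold.

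The single member values were within that SD of those given for all 45 under the values as deposited and under each of the 3 other floors. The mean over probe sets moved 5, median scaling 2, the second probe set 6 and leaving out ambiguous probe sets 6. Acads, Acadm, Hadha and Slc16a1 had no second probe set above the floor, so the second probe set was no check on them. Alternatives for the other pathway genes were added after seeing the data. Their counts in germ-free colon ran between 0 and 5 higher and between 4 and 11 lower, in germ-free ileum between 0 and 9 higher and between 0 and 4 lower, with the highest of each without a floor. Between regions, calls also ended with the mean over probe sets for Aacs (0.99), Crot (0.54) and, between germ-free arrays, Acacb (-0.59). They ended as deposited for Acsf3 (0.95) and, between germ-free arrays, for Amacr (0.94) and Pccb (0.95). With median scaling Prkaa1 read -0.96, with its second probe set Acot4 read 0.26, and with the floor at the 75th percentile Hacl1 read 0.21 and, between wild type arrays, Acacb -0.35.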

Other observations

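The wild type colon array was the highest of the 4 for 4 members, germ-free colon for 3, wild type ileum for 1 and germ-free ileum for 1. Wild type ileum was the lowest for 4, germ-free colon for 2, wild type colon for 2 and germ-free ileum for 1.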
